A study of Verbena bonariensis with 6 samples.

Results

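The TIFY family of transcriptional regulators, which includes the JAZ repressors of jasmonate response, was examined in root RNA of Verbena bonariensis, an ornamental garden plant (strain Finesse, 2-month-old plants). Members were the gene clusters whose family in the authors' annotation was Tify: 115 of the 8147 regulator clusters for which values were analysed. The cadmium group held 3 libraries from roots of plants kept for 20 days in soil with 100 mg/kg cadmium, and the control group held 3 libraries from roots of plants that received no cadmium solution. The labels give the same growth text and the same treatment text for both groups, and those 2 texts name different temperatures. Each library is labelled as a biological replicate, and the number of plants behind a library is not stated in the labels.

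Jasmonate is a lipid-derived plant hormone of wounding, defence and growth restraint. In Arabidopsis, JAZ proteins bind MYC2 and related bHLH activators through a Jas motif and recruit corepressors through the TIFY (ZIM) domain, and jasmonoyl-isoleucine makes the receptor COI1 mark them for degradation. Many JAZ genes are themselves transcribed in response to jasmonate in Arabidopsis, so that their RNA is used there as a readout of the pathway as well as a measure of its brake. The family also holds proteins outside the JAZ group: TIFY 8, the PEAPOD proteins (TIFY 4A and TIFY 4B), known from control of leaf growth, and the ZML proteins, which carry a GATA zinc finger beside the TIFY domain.

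The values are read counts per assembled gene cluster, with the authors' FPKM, a level scaled to cluster length and library depth, beside them. Regulator counts totalled 1092183 to 1228042 per cadmium library and 1207479 to 1340255 per control library, out of an estimated 20390656 to 23343050 and 18636545 to 20560006 fragments in the whole libraries. CPM are counts scaled to a fixed total of regulator counts in each library. Correlations of log2 CPM were 0.84 to 0.85 within the cadmium group, 0.83 to 0.85 within the control group and 0.63 to 0.66 between the groups, and no library stood apart. Of 14 root marker genes, 10 were found by name, with BEARSKIN1, MYB36, RSL2 and RSL4 missing, and the summed level of the list was 4467 to 6323 CPM in cadmium libraries and 3269 to 3592 CPM in control libraries. The markers found differed in direction. SOMBRERO, LBD16, PLETHORA and LRP1, the most abundant, had mean levels of 561, 701, 198 and 2468 CPM in cadmium roots, against 50.2, 75.0, 38.5 and 1702 CPM in control roots. SHORT-ROOT, RHD6 and BEARSKIN2 had mean levels of 805, 11.7 and 22.7 CPM in cadmium roots, against 985, 41.4 and 34.5 CPM in control roots. Of 13 shoot and flower markers, 9 were missing, and MUTE, GLK2 and AGAMOUS were at 0 in control libraries. The summed level of that list, nearly all of it GLK1, was 1577 to 1731 CPM in cadmium libraries and 2207 to 2402 CPM in control libraries. The part of these marker differences in the results below was not tested, and in whole roots fewer cells of a type and less RNA per cell cannot be told apart.

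Names of members came from their best hit in Swiss-Prot, a curated protein database. Of the 115 clusters, 80 carried a TIFY name, 17 a protein phosphatase 2C name, 2 the name GATA24, and 16 had no hit. The TIFY names were 9 in number: TIFY 6B (26 clusters), TIFY 10B (14), TIFY 10A (10), TIFY 8 (10), TIFY 4B (10), TIFY 5A (4), TIFY 6A (3), TIFY 9 (2) and TIFY 7 (1). These 80 clusters held 98.1% ± 0.0920 of all Tify counts in cadmium libraries and 97.1% ± 0.213 in control libraries (SD, n = 3 each). In the domain column of the annotation, 42 members were listed with a CCT motif, the domain class under which the Jas motif is catalogued, none with a TIFY or ZIM domain by name, and 37 with no domain. Several clusters share a name, and whether these are pieces of 1 gene or related genes was not tested. The best hits in the larger NR database came to 21 proteins, and 97 of the 107 members with such a hit had it in sesame, Sesamum indicum.

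Tify transcripts took a larger share of regulator counts in cadmium roots. They made up 2.46%, 2.40% and 2.64% of regulator counts in the 3 cadmium libraries, against 1.23%, 1.37% and 1.28% in the 3 control libraries. Every cadmium library stood above every control library, and the ratio of the means was 1.93. As a share of the whole library, Tify counts averaged 0.134% ± 0.0101 in cadmium roots and 0.0837% ± 0.00404 in control roots (SD, n = 3 each), a ratio of 1.61.

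**Figure D1:**
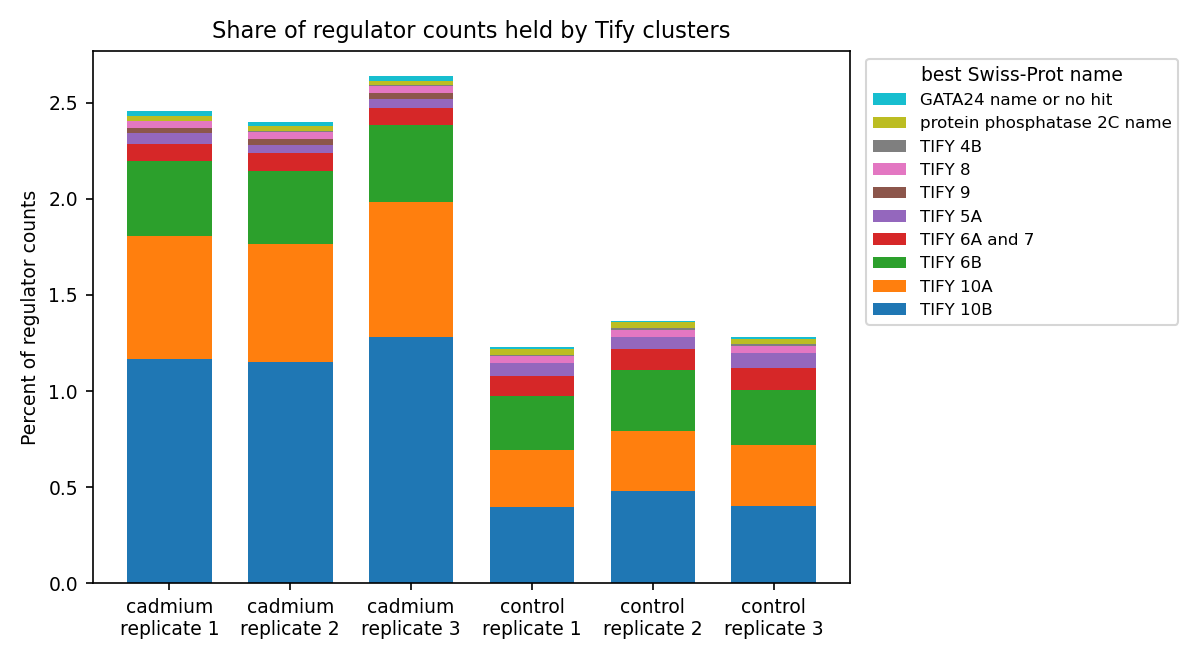
Share of all regulator counts held by Tify clusters, in percent, in each of the 3 cadmium and 3 control libraries, stacked by best Swiss-Prot name. The cadmium bars reach 2.40% to 2.64% and the control bars 1.23% to 1.37%, and the TIFY 10B, TIFY 10A and TIFY 6B segments make up most of every bar.

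The family's counts were concentrated in TIFY 10B, TIFY 10A and TIFY 6B. TIFY 10B clusters held 48.0% ± 0.445 of Tify counts in cadmium roots and 32.9% ± 1.99 in control roots. TIFY 10A clusters held 26.2% ± 0.541 in cadmium roots and 23.9% ± 0.909 in control roots. The share of TIFY 6B was 15.6% ± 0.335 in cadmium roots and 22.8% ± 0.312 in control roots, so its part in the family was smaller under cadmium (SD, n = 3 each).

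Among single clusters, 9 members were at 0 in every library and 48 more did not pass the filter on low counts. The untested members together held 1.17% of Tify counts. The remaining 58 were tested with edgeR's quasi-likelihood test, in a fit across all 4844 regulator clusters that passed the filter. At a Benjamini-Hochberg adjusted p below 0.05, 18 of the 58 rose (31.0%) and 4 fell (6.90%), beside 15.8% higher and 14.6% lower over all clusters tested. Both directions together made 22 of 58 (37.9%), beside 30.5%. At least 2-fold changes were called for 16 higher and 4 lower, beside 10.7% and 10.6% over all clusters. The libraries of the 2 groups did not overlap for 23 clusters higher and 9 lower in cadmium, beside 25.6% and 27.9% over all clusters. The median log2 fold change, cadmium over control, was 0.65 over the tested Tify clusters and -0.08 over all clusters tested.

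These calls are relative to the regulators as a whole. When counts were scaled to whole-library totals, the median over all clusters shifted to -0.43, and that over Tify clusters to 0.23. The calls then came to 17 higher and 8 lower of 57 tested, beside 10.9% and 23.1% over all clusters. Among the TIFY-named clusters alone, a subset chosen after the data had been seen, 14 of 45 tested rose (31.1%) and 2 fell (4.44%) in the edgeR fit scaled within the regulators, beside 15.8% higher and 14.6% lower over all clusters.

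**Figure D2:**
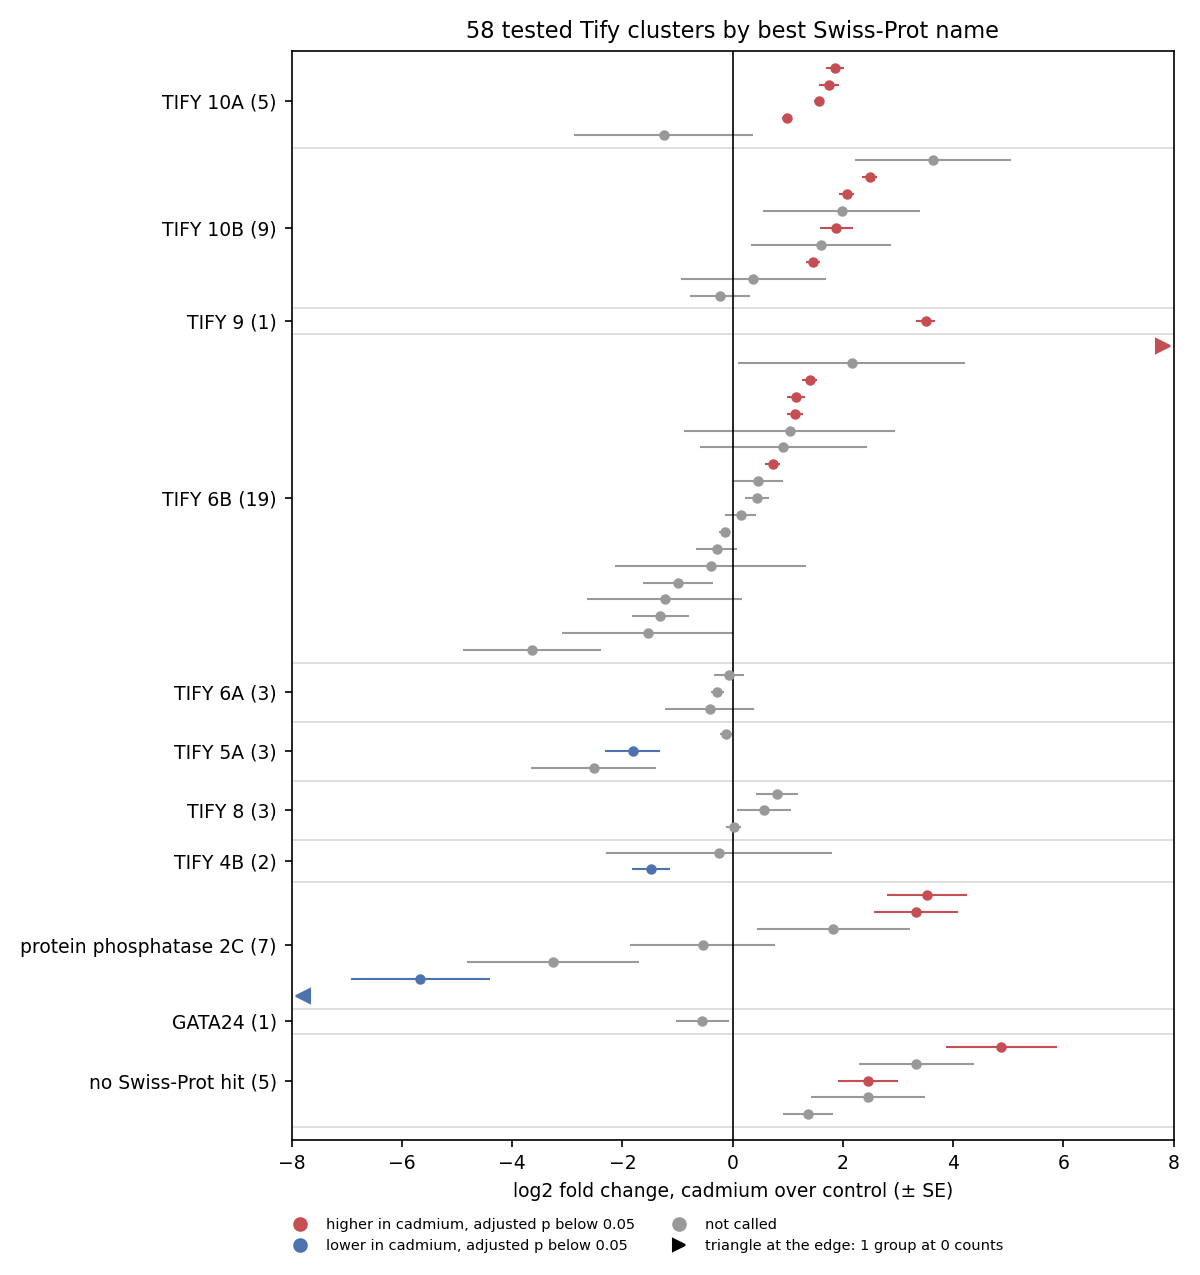
Log2 fold change, cadmium over control, with its standard error (SE) for each of the 58 tested Tify clusters, grouped by best Swiss-Prot name with the number tested in brackets. Red points passed the test as higher in cadmium, blue as lower, and grey did not pass, and triangles mark the 2 clusters whose counts were 0 in 1 of the groups. Called clusters of the names TIFY 10A, TIFY 10B, TIFY 9 and TIFY 6B lie right of 0, those of TIFY 5A and TIFY 4B left of it, and phosphatase-named clusters on both sides.

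Because an assembly can split a gene into several clusters, and near-identical clusters can share reads, counts were also summed over clusters with the same Swiss-Prot name. Of 10 such sums tested, 4 rose and 3 fell, beside 28.8% higher and 27.6% lower over all 1499 sums tested. TIFY 9, TIFY 10B, TIFY 10A and TIFY 6B rose, and TIFY 4B, TIFY 5A and TIFY 6A fell. With whole-library totals 3 of the 10 sums were called higher and 4 lower, beside 18.3% higher and 44.9% lower over all 1487 sums tested on that scaling. TIFY 6B was then no longer called and the phosphatase sum was called lower. On that scaling the log2 fold changes were 3.09 for TIFY 9, 1.23 for TIFY 10B, 0.81 for TIFY 10A, -0.58 for TIFY 6A, -0.73 for TIFY 5A and -1.71 for TIFY 4B, all called.

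**Figure D3:**
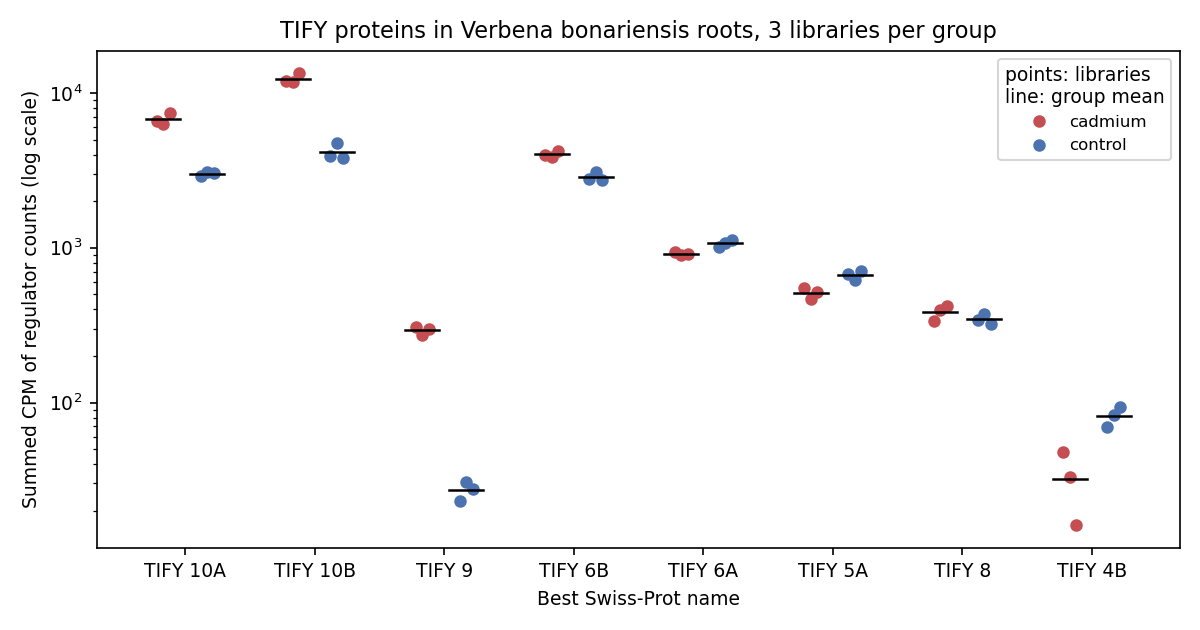
Summed CPM per library (log scale) for the 8 TIFY names tested, with 3 cadmium libraries (red) left of 3 control libraries (blue) and a line at each group mean. The groups are separate for every name except TIFY 8, and the gap is widest for TIFY 9, at 274 to 308 CPM in cadmium libraries and 22.9 to 30.6 CPM in control libraries.

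RNA levels of different names were compared on the authors' FPKM summed over clusters of a name. Where clusters are pieces of the same gene, such a sum is not the level of that gene per length. In cadmium roots the order of levels of the 8 tested names was TIFY 10A at 948 ± 103 FPKM, TIFY 10B at 885 ± 84.6, TIFY 6B at 290 ± 20.7, TIFY 5A at 64.1 ± 4.58, TIFY 6A at 43.8 ± 0.376, TIFY 9 at 17.7 ± 0.934, TIFY 8 at 12.1 ± 1.75 and TIFY 4B at 0.667 ± 0.310 (SD, n = 3). TIFY 10A and TIFY 10B overlapped in that group and no other neighbours did. In control roots the order was TIFY 10A at 472 ± 17.6 FPKM, TIFY 10B at 382 ± 42.0, TIFY 6B at 229 ± 14.8, TIFY 5A at 102 ± 9.32, TIFY 6A at 65.3 ± 4.85, TIFY 8 at 13.4 ± 0.972, TIFY 4B at 3.16 ± 0.777 and TIFY 9 at 2.13 ± 0.326 (SD, n = 3), and no neighbours overlapped. TIFY 7, which was not tested, stood at 0.270 ± 0.468 FPKM in cadmium roots and 0.147 ± 0.189 FPKM in control roots (SD, n = 3 each). TIFY 9 was thus last of the tested names in control roots and stood above TIFY 8 and TIFY 4B in cadmium roots. The first place of TIFY 10A rested on its shortest cluster, Cluster-9033.89320, of 367 bases. That cluster averaged 564 FPKM in cadmium roots and 233.8 FPKM in control roots. It held only 21.3% of TIFY 10A counts in cadmium roots and 16.1% in control roots. In summed CPM, which are not scaled to length, TIFY 10B stood above TIFY 10A in both groups. FPKM are scaled to the whole library and CPM to the regulators, and the mean of TIFY 8 was lower in cadmium on the FPKM scale and higher on the CPM scale.

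TIFY 10A and TIFY 10B, known in Arabidopsis as JAZ1 and JAZ2, were the most abundant members and both rose. Summed TIFY 10A stood at 6584, 6265 and 7376 CPM in cadmium libraries, against 2887, 3104 and 3019 CPM in control libraries. Summed TIFY 10B stood at 11998, 11720 and 13377 CPM in cadmium libraries, against 3903, 4734 and 3795 CPM in control libraries. Neither pair of groups overlapped, and the log2 fold changes were 1.17 ± 0.07 for TIFY 10A and 1.58 ± 0.10 for TIFY 10B (SE, n = 3 per group, edgeR, Benjamini-Hochberg adjusted p = 2.94e-06 and 2.54e-06).

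Most of TIFY 10B came from a single cluster. Cluster-9033.87688, of 928 bases, held 80.0% ± 1.19 of TIFY 10B counts in cadmium roots and 86.6% ± 1.66 in control roots. It stood at 9601, 9327 and 11057 CPM in cadmium libraries, against 3317, 4241 and 3362 CPM in control libraries, a log2 fold change of 1.46 ± 0.12. Its best NR hit is TIFY 10A of Erythranthe guttata, so the 2 databases name it differently. Cluster-9033.40741 had the smallest adjusted p of the name, with 1272, 1388 and 1280 CPM in cadmium libraries and 254, 260 and 191 CPM in control libraries (log2 fold change 2.48 ± 0.14, edgeR, Benjamini-Hochberg adjusted p = 0.000137). Cluster-9033.40744 followed, at 485 ± 45.7 CPM in cadmium roots and 115 ± 12.9 CPM in control roots (SD, n = 3 each). The only domain listed for Cluster-9033.40741 and Cluster-9033.40744 is a defensin-like peptide family. Whether these clusters join different transcripts was not tested. In all, 4 of 9 tested TIFY 10B clusters rose and none fell, and the 5 that did not pass had log2 fold changes between -0.22 and 3.63 and SE of 0.54 to 1.42.

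For TIFY 10A, 4 of 5 tested clusters rose and none fell. The largest, Cluster-9033.89322, stood at 4445, 4106 and 5031 CPM in cadmium libraries, against 2183, 2331 and 2371 CPM in control libraries (log2 fold change 0.98 ± 0.09, edgeR, Benjamini-Hochberg adjusted p = 0.000640). Cluster-9033.89320, the shortest member at 367 bases, stood at 1364, 1432 and 1542 CPM in cadmium libraries, against 475, 522 and 475 CPM in control libraries. The groups were separate for both clusters. Cluster-9033.127779 had the steepest rise of the called clusters of this name, at 519 ± 83.0 CPM in cadmium roots and 144 ± 16.7 CPM in control roots (SD, n = 3 each, log2 fold change 1.85 ± 0.16).

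Swiss-Prot and NR divide these 2 names differently. Of 16 sums over a best NR protein that were tested, 13 were called, 10 higher and 3 lower, beside 59.7% called, 30.2% higher and 29.5% lower over all NR sums. Of the 24 clusters named TIFY 10A or TIFY 10B, 20 shared 1 best NR protein, the sesame TIFY 10B-like isoform X1. Summed over that protein, counts stood at 3249 ± 97.4 CPM in cadmium roots and 767 ± 26.3 CPM in control roots, a log2 fold change of 2.08 ± 0.07. The sum for Erythranthe TIFY 10A, in which Cluster-9033.87688 is the main part, changed by 1.45 ± 0.11, and sesame TIFY 10A-like isoforms X1 and X2, 1 Swiss-Prot-named cluster each, by 1.56 ± 0.08 and 0.98 ± 0.08 (SE, n = 3 per group). Under either naming, all of these sums passed the test as higher in cadmium.

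TIFY 9, known in Arabidopsis as JAZ10, had the largest fold change of the summed names. Its sum stood at 308, 274 and 298 CPM in cadmium libraries, against 22.9, 30.6 and 27.7 CPM in control libraries, 10.9-fold higher on the fitted scale. The log2 fold change was 3.45 ± 0.15 (edgeR, Benjamini-Hochberg adjusted p = 4.47e-07). Of its 2 clusters, Cluster-9033.9987 held almost all counts and was the only one tested. It stood at 17.5 ± 0.894 FPKM in cadmium roots and 1.96 ± 0.245 FPKM in control roots (SD, n = 3 each), and its best NR hit is an uncharacterised protein of castor bean, Ricinus communis.

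Clusters with no Swiss-Prot hit included neighbours of TIFY 9 in the authors' numbering. Of the 16 without a hit, 6 had a TIFY protein as best NR hit and 8 had no hit in either database. Of the 5 tested, 2 rose, by 2.45 and 4.87 on the log2 scale, and none fell. Both of these and the TIFY 9 cluster belong to a run of 7 members numbered 9981 to 9988, of which 4 were tested and 3 rose. The fourth had a log2 fold change of 2.45 with an adjusted p of 0.128 (edgeR, Benjamini-Hochberg). Mean levels in the run were 9.92 to 294 CPM in cadmium roots and 0.776 to 26.1 CPM in control roots, except for 1 cluster at 0 in every library. The run was picked after its values had been seen.

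TIFY 6B, known in Arabidopsis as JAZ3, rose less, and not under every scaling. Its sum stood at 3968, 3873 and 4201 CPM in cadmium libraries, against 2765, 3097 and 2724 CPM in control libraries. The groups were separate and the log2 fold change was 0.49 ± 0.07 (edgeR, Benjamini-Hochberg adjusted p = 0.000381). With whole-library totals it was 0.14 and the call ended (adjusted p = 0.103).

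The 19 tested TIFY 6B clusters spread widely. Of these, 5 rose and none fell, and 14 did not pass. Cluster-9033.113186, the largest, stood at 1357, 1217 and 1481 CPM in cadmium libraries, against 1478, 1619 and 1391 CPM in control libraries, and its groups overlapped (log2 fold change -0.15 ± 0.10, edgeR, Benjamini-Hochberg adjusted p = 0.317). It held 33.3% ± 1.79 of TIFY 6B counts in cadmium roots and 51.6% ± 1.86 in control roots (SD, n = 3 each), and its best NR hit is TIFY 7. With whole-library totals it was called lower, at -0.49 (adjusted p = 0.00902). Cluster-9033.113207 rose, with 512, 538 and 495 CPM in cadmium libraries and 192, 228 and 167 CPM in control libraries (log2 fold change 1.39 ± 0.14).

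One TIFY 6B cluster was detected in cadmium roots only. Cluster-9033.113208, of 831 bases, stood at 249, 333 and 512 CPM in cadmium libraries and at 0 in all 3 control libraries. Against a floor of 3 counts over the control group it was at least 466-fold higher in cadmium, a bound that covers counting error only. It held 8.93% ± 2.91 of TIFY 6B counts in cadmium roots (SD, n = 3). The only domain listed for it is a ferredoxin-dependent bilin reductase, and whether it joins different transcripts was not tested. Clusters of this name carry neighbouring numbers and could share reads, so a level of 0 for one of them does not show that the gene was silent. Summed over NR proteins, the 14 clusters of sesame TIFY 6B changed by 0.91 ± 0.12 and the 11 of TIFY 6B-like by 0.98 ± 0.10 (SE, n = 3 per group), both called higher. TIFY 7, which as an NR protein takes in 5 clusters, changed by -0.18 ± 0.07 and was called lower (edgeR, Benjamini-Hochberg adjusted p = 0.0472).

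**Figure D4:**
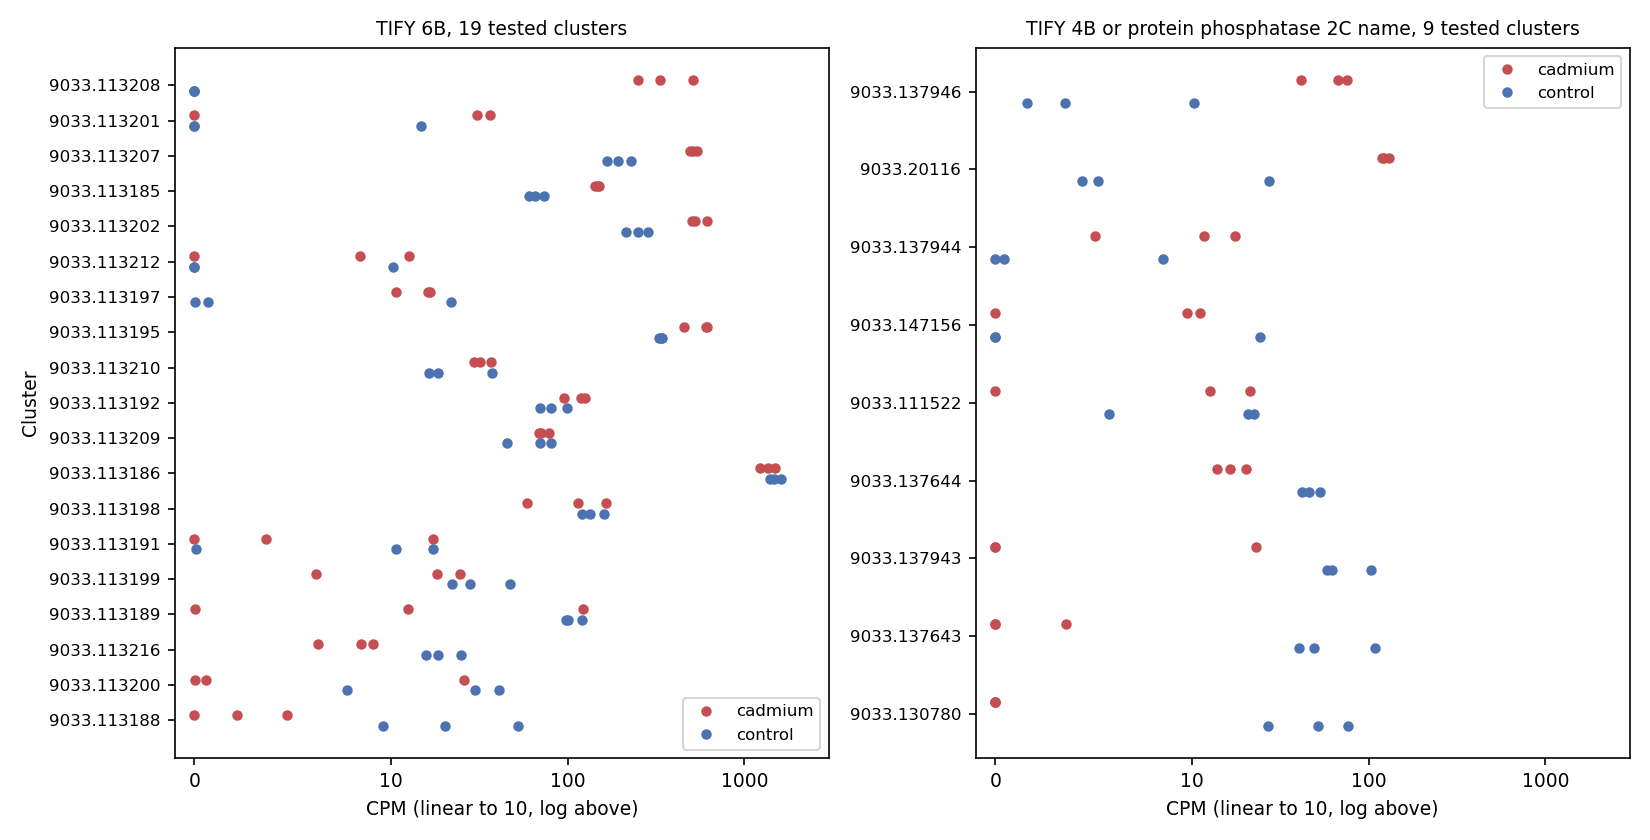
CPM in each library for the 19 tested TIFY 6B clusters and for the 9 tested clusters with a TIFY 4B or phosphatase name, with cadmium (red) above control (blue) in each row and an axis that is linear to 10 and logarithmic above. Cluster-9033.113208 has its 3 control points at 0 and Cluster-9033.130780 its 3 cadmium points at 0, and the largest TIFY 6B cluster, Cluster-9033.113186, overlaps between the groups.

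TIFY 6A, known in Arabidopsis as JAZ4, fell slightly as a sum. It stood at 941, 903 and 904 CPM in cadmium libraries, against 1013, 1072 and 1128 CPM in control libraries, a log2 fold change of -0.23 ± 0.07 (edgeR, Benjamini-Hochberg adjusted p = 0.0194). The call ended without cadmium replicate 2 (adjusted p = 0.0677) and without control replicate 3 (adjusted p = 0.0514). None of its 3 clusters passed alone, and the largest, Cluster-9033.129826, stood at 690 ± 33.6 CPM in cadmium roots and 839 ± 118 CPM in control roots (SD, n = 3 each, log2 fold change -0.28 ± 0.12). With whole-library totals that cluster was called lower, at -0.63. The best NR hit of all 3 TIFY 6A clusters is sesame TIFY 7, so the databases name them differently. The only cluster named TIFY 7 in Swiss-Prot, JAZ9 in Arabidopsis, was too low to test. The sum over NR TIFY 7, which holds these clusters and Cluster-9033.113186 of TIFY 6B, was called lower, as given above.

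TIFY 5A, known in Arabidopsis as JAZ8, a form that lacks the canonical degron and resists degradation, fell. Its sum stood at 549, 469 and 515 CPM in cadmium libraries, against 671, 617 and 706 CPM in control libraries. The groups were separate, with a log2 fold change of -0.38 ± 0.09 (edgeR, Benjamini-Hochberg adjusted p = 0.00643). The clusters behind it differed by best NR hit. Cluster-9033.52226, whose best NR hit is sesame TIFY 5A, stood at 516, 430 and 496 CPM in cadmium libraries, against 541, 466 and 559 CPM in control libraries, and overlapped between the groups (log2 fold change -0.12 ± 0.11, adjusted p = 0.485). It was called lower with whole-library totals, at -0.47 (adjusted p = 0.0249).

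The other 3 TIFY 5A clusters share an unnamed protein of coffee, Coffea canephora, as best NR hit. Their sum stood at 35.2 ± 7.31 CPM in cadmium roots and 150 ± 17.4 CPM in control roots (SD, n = 3 each), a log2 fold change of -2.08 ± 0.20. Cluster-9033.56315, of this group, stood at 15.1, 40.8 and 13.3 CPM in cadmium libraries, against 83.6, 88.2 and 72.7 CPM in control libraries. Its log2 fold change was -1.81 ± 0.50 (edgeR, Benjamini-Hochberg adjusted p = 0.0394). It was -2.49 without cadmium replicate 2 and was not called without any one of the other 5 libraries (adjusted p between 0.0793 and 0.113).

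TIFY 8, a member outside the JAZ group that acts as a repressor in Arabidopsis, was not called different. Its sum stood at 335, 396 and 421 CPM in cadmium libraries, against 341, 373 and 320 CPM in control libraries, and the groups overlapped. The log2 fold change was 0.16 ± 0.11 (edgeR, Benjamini-Hochberg adjusted p = 0.277), and -0.20 with whole-library totals. Its largest cluster, Cluster-9033.31313, averaged 282 ± 43.9 CPM in cadmium roots and 279 ± 2.79 CPM in control roots (SD, n = 3 each).

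TIFY 4B, known in Arabidopsis as the growth regulator PEAPOD2, was low in both groups and fell. Its sum stood at 47.7, 32.9 and 16.1 CPM in cadmium libraries, against 69.8, 82.8 and 94.2 CPM in control libraries. The groups were separate and the log2 fold change was -1.35 ± 0.36 (edgeR, Benjamini-Hochberg adjusted p = 0.0126). Only 2 of its 10 clusters were tested, and Cluster-9033.137644 fell, with 13.9, 20.3 and 16.4 CPM in cadmium libraries and 42.2, 46.3 and 53.0 CPM in control libraries (log2 fold change -1.48 ± 0.35, adjusted p = 0.0218). That call remained without cadmium replicate 2 and ended without any one of the other 5 libraries (adjusted p between 0.0570 and 0.0722). The other PEAPOD name, TIFY 4A, appeared only as an NR hit, TIFY 4A-like of oil palm, Elaeis guineensis. The sum of its 2 clusters, Cluster-9033.9986 among them, rose. It stood at 41.4 ± 3.83 CPM in cadmium roots and 3.17 ± 3.07 CPM in control roots (SD, n = 3 each). Its log2 fold change was 3.67 ± 0.73 (edgeR, Benjamini-Hochberg adjusted p = 0.00227).

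The 17 members with a phosphatase name overlap in annotation with TIFY 4B. Protein phosphatases 2C remove phosphate from serine and threonine and are known in plants mainly from abscisic acid and stress signalling. A protein phosphatase 2C domain was listed for 25 members, namely all 17 of these and 8 of the 10 TIFY 4B clusters, and all 17 also had a CCT motif. These are long clusters, with a median of 3495 bases, against 1456 bases over all members. Of the 17, 3 had TIFY 4B as best NR hit. Whether these clusters, or the 8 TIFY 4B clusters with a phosphatase domain, join 2 transcripts was not tested, so their values may not belong to TIFY 4B alone.

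Single phosphatase-named clusters moved in both directions while their sum did not pass. Of 7 tested, 2 rose and 2 fell. Cluster-9033.20116 stood at 119, 122 and 131 CPM in cadmium libraries, against 4.43, 27.4 and 5.23 CPM in control libraries (log2 fold change 3.33 ± 0.76, edgeR, Benjamini-Hochberg adjusted p = 0.0203). Its call remained without control replicate 2, at 4.71, and ended without any one of the other 5 libraries (adjusted p between 0.0521 and 0.0583). Cluster-9033.137946 stood at 41.3, 67.1 and 75.5 CPM in cadmium libraries, against 3.54, 10.3 and 1.61 CPM in control libraries. Its log2 fold change was 3.52 ± 0.73, and 4.48 without control replicate 2, and the call ended without control replicate 1 (adjusted p = 0.0594).

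Both clusters that fell in this group were at or near 0 in cadmium roots. Cluster-9033.130780 stood at 0 in all 3 cadmium libraries, against 76.2, 52.0 and 27.1 CPM in control libraries, at least 59.6-fold lower in cadmium against a floor of 3 counts over the group. Cluster-9033.137643 stood at 0, 3.58 and 0 CPM in cadmium libraries, against 40.2, 49.0 and 109 CPM in control libraries (log2 fold change -5.66 ± 1.26, edgeR, Benjamini-Hochberg adjusted p = 0.0182). Without control replicate 3 that call ended (adjusted p = 0.0710), and without cadmium replicate 2 the cadmium group was at 0.

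The make-up of the phosphatase-named counts thus differed between the groups more than their total. Cluster-9033.20116 and Cluster-9033.137946 held 47.6% and 23.4% of these counts in cadmium roots, and 4.21% and 1.75% in control roots. Cluster-9033.137643 and Cluster-9033.130780 held 0.430% and 0% in cadmium roots, and 23.2% and 17.6% in control roots. Summed over phosphatase 2C 76, the name of 16 of the 17, the level was 259 ± 15.7 CPM in cadmium roots and 287 ± 17.8 CPM in control roots (SD, n = 3 each). The log2 fold change was -0.15 ± 0.10 (edgeR, Benjamini-Hochberg adjusted p = 0.247), and -0.50 with whole-library totals, where it was called (adjusted p = 0.00285). Grouped by NR protein instead, 13 clusters of sesame TIFY 4B-like isoform X2 stood at 52.2 ± 17.8 CPM in cadmium roots and 238 ± 40.6 CPM in control roots, a log2 fold change of -2.19 ± 0.24. The 13 clusters of sesame phosphatase 2C 51 stood at 238 ± 8.25 CPM in cadmium roots and 132 ± 45.2 CPM in control roots, a log2 fold change of 0.85 ± 0.23 (SD, n = 3 each, SE for the fold changes).

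Of the 2 members named GATA24, the ZML1 protein of Arabidopsis, 1 was tested and did not pass. Cluster-9033.128504, the one tested, averaged 18.0 ± 7.14 CPM in cadmium roots and 26.8 ± 6.99 CPM in control roots (SD, n = 3 each), and its groups overlapped (log2 fold change -0.55 ± 0.48).

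Other regulators linked to jasmonate were taken from a list of names outside the family, matched to 96 clusters, of which 56 were tested. The list is wider than the jasmonate pathway itself, and 27 of its clusters were named GATA24 or GATA28. Of the 56 tested clusters of the whole list, 25 rose (44.6%) and 3 fell (5.36%), beside 15.8% higher and 14.6% lower over all clusters tested. The median log2 fold change of the 56 was 0.63. Several clusters shared a name: of the 25 that rose, 7 were named MYB108, 5 WRKY70 and 4 ERF1B. Of the 3 that fell, 2 were MYC-type activators. With whole-library totals, 17 clusters of the list were called higher (30.4%) and 4 lower (7.14%), beside 10.9% and 23.1% over all clusters. No cluster carried the name of the receptor COI1, of the adaptor NINJA or of a TOPLESS corepressor, so these steps of the pathway were not analysed here.

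**Figure D5:**
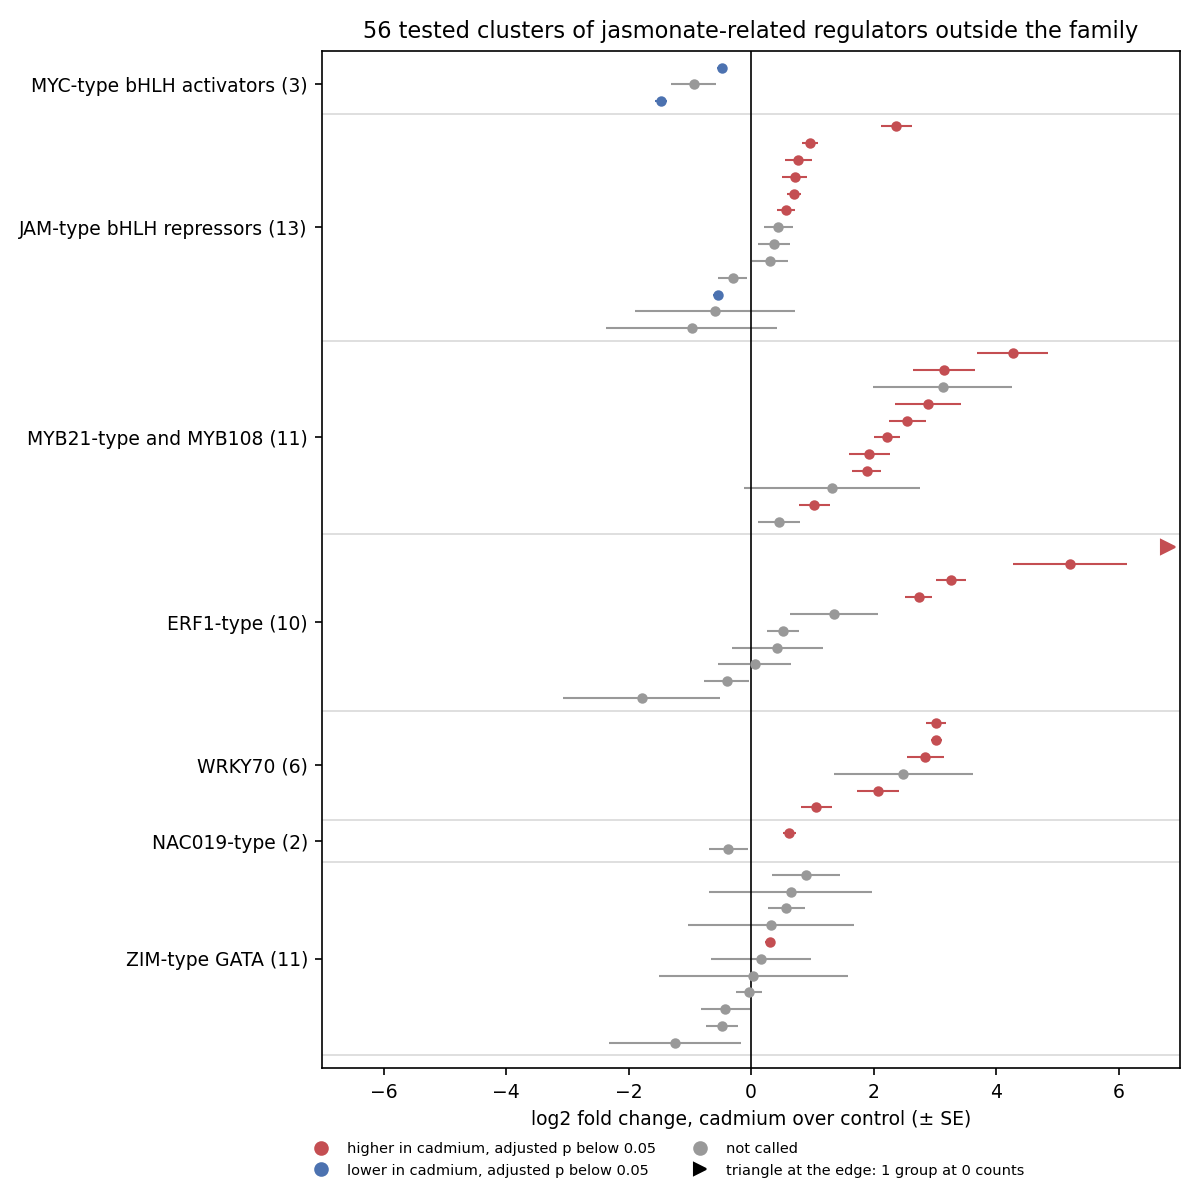
Log2 fold change, cadmium over control, with its SE for the 56 tested clusters of jasmonate-related regulators outside the Tify family, by role, with colours and triangle as in the plot of the Tify clusters. The 2 called MYC2 clusters lie left of 0, and called clusters of the MYB, ERF1-type and WRKY70 groups lie right of it.

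RNA of MYC2, the bHLH activator that JAZ proteins repress, was lower in cadmium while RNA of the most abundant TIFY names was higher. Summed MYC2 stood at 4112 ± 217 CPM in cadmium roots and 10345 ± 378 CPM in control roots (SD, n = 3 each), a log2 fold change of -1.33 ± 0.06 (edgeR, Benjamini-Hochberg adjusted p = 5.75e-07). Its main cluster, Cluster-9033.82382, stood at 3490, 2981 and 3825 CPM in cadmium libraries, against 9356, 9959 and 9326 CPM in control libraries. MYC4, a related activator, was a single cluster, Cluster-3349.0, at 24.2 ± 8.40 CPM in cadmium roots and 46.5 ± 3.88 CPM in control roots (SD, n = 3 each). Its log2 fold change was -0.94 ± 0.37 and did not pass in the fit across clusters (edgeR, Benjamini-Hochberg adjusted p = 0.109), while the fit of sums gave the same cluster an adjusted p of 0.0359.

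The JAM-type bHLH proteins, which compete with MYC2 for its sites in Arabidopsis, had more clusters called higher than lower. Of 13 clusters tested, 6 rose and 1 fell, beside 15.8% higher and 14.6% lower over all clusters tested. The clusters carried only 3 names, and 3 of the 6 that rose were named bHLH3. Cluster-9033.31809, named bHLH14, stood at 397, 409 and 643 CPM in cadmium libraries, against 99.5, 106 and 74.3 CPM in control libraries (log2 fold change 2.37 ± 0.25). Cluster-9033.137723, named bHLH13, averaged 1158 ± 207 CPM in cadmium roots and 594 ± 23.4 CPM in control roots (SD, n = 3 each). Cluster-9033.67399, named bHLH3, fell, with 325 ± 10.9 CPM in cadmium roots and 472 ± 11.7 CPM in control roots. The sum over bHLH3 had a log2 fold change of 0.27 ± 0.07 (edgeR, Benjamini-Hochberg adjusted p = 0.00785) scaled within the regulators and of -0.09 ± 0.07 with whole-library totals (adjusted p = 0.292), so its direction turned with the scaling.

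Among regulators that respond to jasmonate together with other signals, more clusters rose than fell. They carried few names, and whether clusters of a name are pieces of 1 gene was not tested. Over all clusters tested, 15.8% were called higher and 14.6% lower. MYB108, known in Arabidopsis from stamen maturation and stress, and MYB24, also of stamens, had 8 of 11 tested clusters higher and none lower. Of the 11, 10 were named MYB108. Cluster-9033.4853, named MYB108, stood at 133, 148 and 121 CPM in cadmium libraries, against 28.4, 31.5 and 26.0 CPM in control libraries (log2 fold change 2.22 ± 0.21). The most abundant MYB108 cluster, Cluster-9033.75836, averaged 1452 ± 153 CPM in cadmium roots and 709 ± 255 CPM in control roots (SD, n = 3 each, edgeR, Benjamini-Hochberg adjusted p = 0.0245). That call remained without control replicate 2 and ended without any one of the other 5 libraries (adjusted p between 0.0510 and 0.0835), and the sum over MYB108 changed by 1.49 ± 0.18.

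ERF1B, which joins ethylene and jasmonate signals in Arabidopsis, had 4 of 10 tested clusters higher and none lower. Cluster-9033.7386 stood at 336, 334 and 378 CPM in cadmium libraries, against 25.6, 47.0 and 36.3 CPM in control libraries (log2 fold change 3.26 ± 0.25). WRKY70, known in Arabidopsis for its place between salicylate and jasmonate responses, had 5 of 6 tested clusters higher and none lower. Beside both counts, 15.8% of all clusters tested were called higher and 14.6% lower. Summed WRKY70 stood at 4076 ± 271 CPM in cadmium roots and 564 ± 32.6 CPM in control roots (SD, n = 3 each). Its main cluster, Cluster-9033.80707, changed by 3.02 ± 0.09 on the log2 scale.

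The remaining groups had few calls, beside 15.8% higher and 14.6% lower over all clusters tested. NAC19, a target of MYC2 in Arabidopsis, had 1 of 2 tested clusters higher, Cluster-9033.38297, at 566 ± 28.7 CPM in cadmium roots and 367 ± 38.4 CPM in control roots (SD, n = 3 each, log2 fold change 0.63 ± 0.11). With whole-library totals that call ended, at 0.28 (edgeR, Benjamini-Hochberg adjusted p = 0.0976). Of 11 tested clusters named GATA24 or GATA28 and placed in the GATA family, 1 rose, Cluster-9033.65071, at 686 ± 49.8 CPM in cadmium roots and 553 ± 13.9 CPM in control roots. Its log2 fold change was 0.31 ± 0.08 (adjusted p = 0.0343), and -0.04 with whole-library totals. Its call remained without cadmium replicate 2 and ended without any one of the other 5 libraries (adjusted p between 0.0748 and 0.110). The sum over GATA24 in the GATA family was called in opposite directions. It changed by 0.17 ± 0.06 scaled within the regulators (edgeR, Benjamini-Hochberg adjusted p = 0.0430). With whole-library totals it changed by -0.18 ± 0.06 (adjusted p = 0.0346).

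The authors' deposited table gave a q-value for 103 of the 115 Tify clusters. At q below 0.05, 20 were higher and 5 lower in cadmium in the authors' deposited table, beside 8.95% and 10.2% over all its clusters with a q-value. Of these, 17 higher and 3 lower were called in the same direction by the fit used here, and 0 in the opposite one. Another 5 clusters were called in the authors' deposited table, 1 of them below the filter used here, and 2 called here were not called there, among them Cluster-9033.137644 of TIFY 4B with q = 0.0944.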

How the data were processed

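Root RNA was measured in 3 cadmium and 3 control libraries. The deposited read counts are expected counts, many with decimals, and are unscaled, per the file headers and the values. FPKM were computed by the authors from cluster length and library depth, per the name in the file headers and the values. A log2 ratio (cadmium over control) and a q-value come from the authors' own comparison, per the file headers; its test is not stated in those sources. Bowtie2 2.0.6 and TopHat2 2.0.12 are named in the submitters' processing notes, without a role, and no assembler or counting tool is named there.

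The rounded counts were tested with edgeR 4.0.16 (R 4.3.3). Clusters were kept by filterByExpr, with a minimum count of 10 and a minimum total of 15. Counts were scaled by TMM to the regulator totals and fitted by quasi-likelihood on group alone, with Benjamini-Hochberg adjustment at 0.05 over all clusters tested. The common coefficient of biological variation came to 0.573. The SE of a log2 fold change was taken as its size divided by the square root of the test's F statistic. It was thus derived from the test and not estimated separately. CPM values refer to regulator counts after TMM, computed separately for clusters and for sums, so a cluster's CPM can differ slightly from its sum's. Sums were over clusters with the same best Swiss-Prot hit within a family, or the same best NR protein. Whole-library totals were recovered from count over FPKM against length, over clusters above 300 counts and 10 FPKM. Python 3.11.15, pandas 2.3.3, numpy 2.4.6 and matplotlib 3.10.9 prepared tables and figures. The fit was also run on simulated data in which all clusters shared the common dispersion, unlike in the fit of the real counts. Its outcome is not used here.

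Members, gene lists and tests were chosen with earlier results of these data known. For each Swiss-Prot name, the named clusters are up to 2 called higher and 2 called lower, taken by smallest adjusted p, and the most abundant tested one. For each group of the pathway list, they are the most abundant tested cluster and, in each direction, the called cluster with the smallest adjusted p. Shared replicate numbers do not pair the libraries. Alternatives were RLE size factors, whole-library totals, no filter, 5 CPM in 3 libraries, DESeq2 1.42.0, limma-trend 3.58.1 on log2(FPKM + 1) and log2(FPKM + 0.1), the replicate number as a block, and leaving out each library. Sums over NR proteins and the TIFY-named subset were added after seeing the data.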

Additional observations from a re-analysis of the deposited data

How the results depend on the processing

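The counts of changed clusters and sums, both directions added together, kept within 1.5 times of their values except in 1 case: 13 of 16 sums over the best NR protein were called, against 7 of 10 Swiss-Prot sums. The ratio of Tify shares, 1.93 over regulator counts, was 1.61 over the whole library. With each library left out, 18 to 21 Tify clusters were called, 16 to 20 of at least 2-fold, 14 to 17 TIFY-named ones, 6 to 7 sums and 22 to 25 pathway clusters, and the share ratio was 1.88 to 1.99. By direction, the Tify clusters called were 22 higher and 8 lower with DESeq2 (16.7% and 16.6% over all clusters with an adjusted p) and 21 and 12 with limma on log2(FPKM + 1) (14.6% and 29.8%). They were 19 and 11 on log2(FPKM + 0.1) (13.7% and 28.5%) and 18 and 3 with no filter (8.78% and 7.46%). The lower count, 4 as reported, thus lay outside 1.5 times with DESeq2 and limma, with whole-library totals (8) and under the replicate block (0). Directions turned, with whole-library totals and limma on log2(FPKM + 1) and log2(FPKM + 0.1) in turn, for Cluster-9033.31313 of TIFY 8 (-0.33, -0.30, -0.33), Cluster-9033.65071 of GATA24 (-0.037, -0.032, -0.033), the TIFY 8 sum (-0.20, -0.14, -0.15) and the sum of the 2 Tify members named GATA24 (-0.34, -0.0036, -0.079). That sum, 0.02 as reported, lay between -0.25 and 0.37 with each library left out, and Cluster-9033.31313 between -0.074 and 0.15. Among sums outside the Tify family, those over GATA24 (-0.18, -0.28, -0.28) and bHLH3 (-0.09, -0.13, -0.13) also turned, with the settings in the same order. The cause was not tested. Same-numbered libraries did not deviate together (correlations 0.0047, 0.029 and -0.0038). With the replicate number as a block, 16 Tify clusters were called (16 higher and 0 lower, beside 10.3% and 7.99% over all clusters), 14 of at least 2-fold, 7 sums and 21 pathway clusters, and the GATA24 sum was -0.049. Of the Tify clusters named in the results, the block ended the calls of Cluster-9033.137644, Cluster-9033.56315, Cluster-9033.130780 and Cluster-9033.137643. The 57 untested members had at most 149.41 counts in any library, and 9 of them were at 0 in every library.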
